A study of Mus musculus with 11 samples.

Results

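Collagen genes were taken as the protein-coding rows of the count table whose symbol has the form of a collagen chain name (Col, a type number, a and a chain number). The rule found 44 genes among 54232 listed genes, of which 22055 were protein-coding. They comprised 11 fibrillar, 8 basement membrane and 9 FACIT collagens (fibril-associated collagens with interrupted triple helices) and 16 others. Bulk RNA-seq measured whole ovaries of wild-type (WT) mice at 2 months (4 libraries), 18 months (4 libraries) and 24 months (3 libraries). The series describes these ages as reproductively young, reproductively old and past reproduction, and no agent, allele or treatment is given beside age. The names of the libraries titled 24 months carry 22 months, and those of the 2 month libraries carry 8 weeks.

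Every collagen chain holds a stretch in which glycine opens each amino acid triplet, which lets 3 chains wind into a helix. Fibrillar collagens such as types I, III and V pack into the cable-like fibrils of connective tissue, type IV chains form the sheet-like network of basement membranes, FACIT collagens sit on fibril surfaces, and type VI collagen makes fine beaded filaments around cells. In the ovary, type IV collagen lies in the basal lamina around follicles and vessels, and fibrillar collagens fill the stroma and the capsule.

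The family's repeat is shown for 4 members, read from the GENCODE M21 coding sequences with glycine codons in capitals, because its length sets the fibrillar genes apart from the other classes, which overlap with each other. The windows of Col1a1, Col6a1 and Col8a2 cover the first 16 codons of the longest unbroken repeat, and that of Col4a1 covers the place where its longest repeat ends.
Col1a1, codons 168 to 183: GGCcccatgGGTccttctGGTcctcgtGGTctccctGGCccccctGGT
Col6a1, codons 256 to 271: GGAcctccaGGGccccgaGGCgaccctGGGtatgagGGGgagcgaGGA
Col8a2, codons 312 to 327: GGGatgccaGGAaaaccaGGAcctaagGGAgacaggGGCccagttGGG
Col4a1, codons 154 to 169: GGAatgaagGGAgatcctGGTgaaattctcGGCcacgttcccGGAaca
In Col4a1 the glycine spacing slips after GGTgaaattctc, where 3 codons stand between glycines in place of 2. The longest unbroken run was 338 triplets in Col1a1 and 344 in Col3a1, against 40 in Col4a1 and 66 in Col4a2. Col4a1 and Col4a2 each held 18 separate runs of at least 10 triplets. Runs of 87 triplets were found in both Col6a1 and Col6a2, 45 in Col6a3 and 60 in Col8a2. Among the fibrillar genes, Col24a1 (216) and Col27a1 (217) had shorter runs than the rest of the class, which ranged from 337 to 344.

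Library totals ranged from 26061630 to 33407509 counts except for 18 month replicates 3 (5231724) and 4 (8892915). These libraries differed by about counting noise (chi-square 1.10 per gene, against 28.7 for the next pair of 1 age), so their counts were summed and used as 1 sample, which left 10 samples. Nothing in the labels says whether samples came from separate animals, so a p-value here weighs a difference against the spread of these samples alone, which may be technical. Markers of the ovary's own cells were present at all ages. The summed level of 10 oocyte markers was 165 to 402 CPM (counts scaled to a common library size) at 2 months, between 23.8 and 48.2 at 18 months, and between 4.44 and 33.3 at 24 months, and that of 10 granulosa cell markers was 3454 to 4598, 1883 to 3446 and 1482 to 4255. Some other marker lists stood apart in single samples. The 10 oviduct epithelium markers summed to 958 CPM in 24 month replicate 3 against at most 95.5 in every other sample. In the same sample 10 lymphocyte markers summed to 231 CPM, against at most 77.5 elsewhere. The 10 smooth muscle markers summed to 1840 in 18 month replicate 2 and 1793 in 24 month replicate 2 against at most 1324 elsewhere.

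Collagen messages made up 0.601% to 0.710% of all counts in the 2 month ovaries, between 0.591% and 0.902% at 18 months, and between 0.550% and 1.11% at 24 months. These ranges overlapped. Per kilobase of exon, the scale on which genes can be compared, the highest level averaged over the ages was that of Col6a1 (159.9 CPM per kb), followed by Col4a1 (131), Col3a1 (100.3), Col4a2 (93.4), Col1a2 (70.2) and Col1a1 (68.7). The order differed between ages. At 2 months Col4a1 stood highest, at 176 ± 40.7 CPM per kb (mean ± SD, n = 4), above Col6a1 at 122 ± 18.1, Col4a2 at 122 ± 26.2 and Col3a1 at 105 ± 17.5, while Col1a1 was at 52.5 ± 9.68 and Col1a2 at 53.4 ± 9.80. Col6a1 stood above Col4a1 at 18 months, with 162 ± 11.8 against 126 ± 8.31, and at 24 months, with 195 ± 74.6 against 90.9 ± 38.8 (n = 3 each). The samples of Col6a1 and Col4a1 did not overlap at any of the 3 ages, whereas Col1a1 and Col1a2 overlapped at each. The order depended on the length used: per kilobase of the transcript with the longest coding sequence, an alternative chosen after seeing the data, Col3a1 led (177), followed by Col6a1 (171) and Col1a2 (163). 

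**Figure D1:**
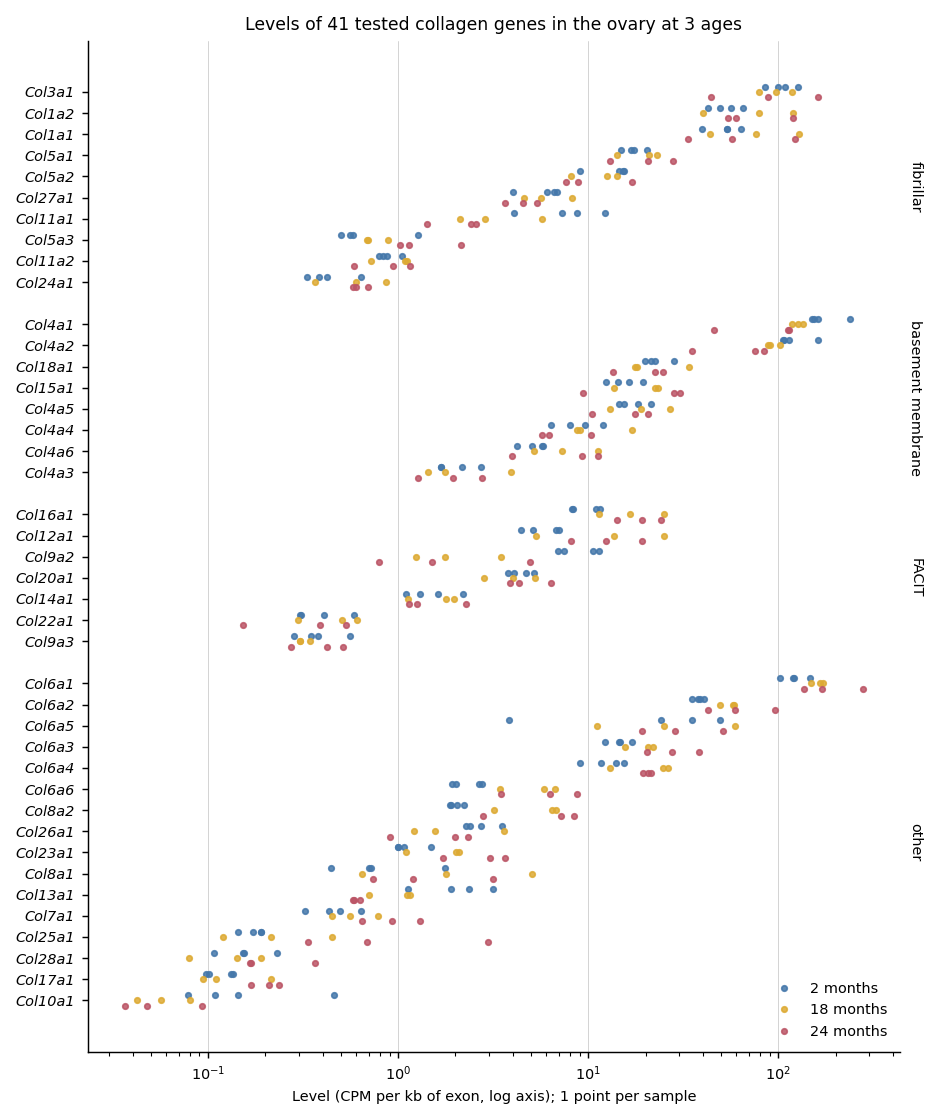
Levels of the 41 tested collagen genes in CPM per kilobase of exon (log axis), 1 point per sample, coloured by age and grouped by class with the highest gene of each class on top. Col6a1, Col4a1 and Col3a1 had the highest means over the ages, and the lowest tested gene of the fibrillar, FACIT and other classes had a mean below 1 CPM per kb, while the lowest basement membrane gene, Col4a3, had 2.14.

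At the low end, 3 genes had too few counts to be tested. Col2a1, the main fibrillar collagen of cartilage, had 26 counts over all samples, Col9a1 had 4 and Col19a1 had 43. The remaining 41 genes passed the filter on low counts and entered a fit over 20331 genes.

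In the 24 month ovaries, type VI collagen messages were higher than at 2 months and the paired basement membrane messages Col4a1 and Col4a2 were lower, while the types I and III messages did not pass the test. In edgeR's quasi-likelihood fit, with Benjamini-Hochberg adjustment over all genes tested, 15 of 41 collagen genes (36.6%) were called at an adjusted p under 0.05, beside 35.0% of all genes. Of these, 10 rose (19.2% of all genes rose) and 5 fell (15.8% of all genes fell). The share called was close to that of all genes, and nothing particular to the family is read from it. The median log2 fold change was 0.24 over the 41 collagens and 0.03 over all genes. By class, 0 of 10 tested fibrillar genes rose and 1 fell, 0 of 8 basement membrane genes rose and 2 fell, 1 of 7 FACIT genes rose and 1 fell, and 9 of 16 other genes rose and 1 fell. Of the fibrillar genes 2 had an unadjusted p under 0.05, and DESeq2 called 1 higher and 1 lower. Of the basement membrane genes the 2 that fell were the only ones under that unadjusted p, and DESeq2 called 0 higher. Over all 20331 genes tested, 9504 had an unadjusted p under 0.05 and DESeq2 called 8339. One gene of a class was added to the higher calls in some fits that left out 1 sample, for fibrillar genes without 2 month replicate 4 or 24 month replicate 1 and for basement membrane genes without 24 month replicate 1 or 3. The count that rose was 5 without 2 month replicate 1, without 2 month replicate 3 or without 24 month replicate 2, and the count that fell was 2 without 2 month replicate 1 and 3 without 2 month replicate 2, 2 month replicate 4 or 24 month replicate 3. The ages did not overlap in 11 collagens that were higher and 5 that were lower, beside 21.7% and 20.4% of all genes. In whole tissue, fewer cells of a type and less RNA per cell cannot be told apart.

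**Figure D2:**
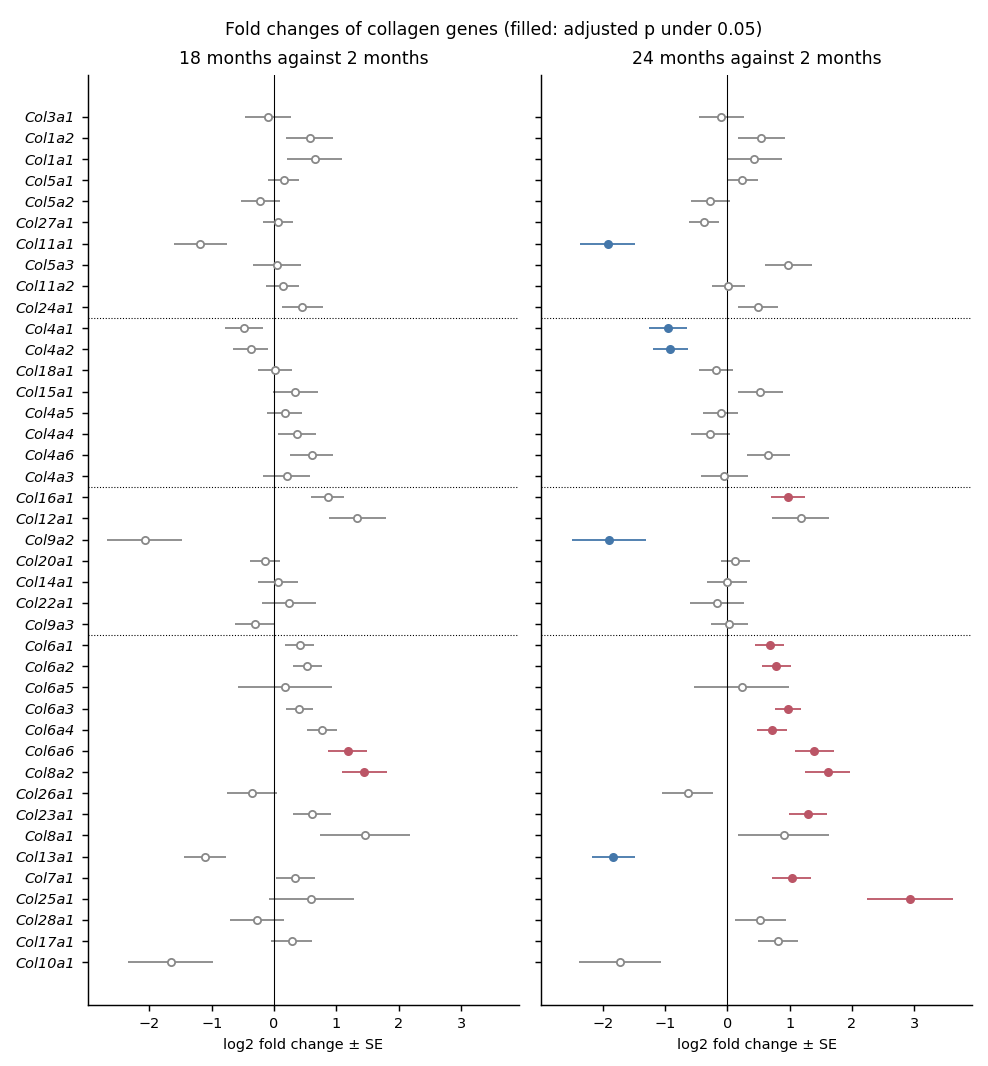
Log2 fold change ± SE of each tested collagen gene for 18 against 2 months and 24 against 2 months, by class, with filled symbols for an adjusted p under 0.05. In the right panel 10 filled symbols lie above 0 and 5 below, and in the left panel 2 lie above 0.

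Type VI collagen is assembled from an alpha1, an alpha2 and an additional, longer chain. Between 2 and 24 months 5 of its 6 genes rose (median log2 fold change 0.75), beside 19.2% of all genes. Col6a1 (ENSMUSG00000001119, chr10:76708792-76726168, minus strand) encodes the alpha1 chain and was at 524, 639.9, 447 and 529 CPM in the 2 month samples, 652, 750.4 and 728 CPM in the 18 month samples and 747, 1224 and 598 CPM in the 24 month samples. Its log2 fold change at 24 against 2 months was 0.68 (SE 0.23, adjusted p = 0.0432), and 24 month replicate 3 lay inside the 2 month range. Col6a2 (ENSMUSG00000020241, chr10:76595762-76623630, minus strand), the alpha2 chain, was at 316, 324, 292 and 338 CPM in the 2 month samples, 409, 489 and 480.3 CPM in the 18 month samples and 489, 795 and 356 CPM in the 24 month samples. Here all 24 month samples lay above all 2 month samples, with a log2 fold change of 0.79 (SE 0.23, adjusted p = 0.0254). The alpha3 gene Col6a3 (ENSMUSG00000048126, chr1:90765923-90843971, minus strand) was at 173, 176, 146 and 204 CPM in the 2 month samples, 186, 263 and 247 CPM in the 18 month samples and 245, 459 and 328 CPM in the 24 month samples. All 24 month values again exceeded the 2 month values, by 0.98 (SE 0.21, adjusted p = 0.00898) on the log2 scale.

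The alternative long chains Col6a4, Col6a5 and Col6a6 lie side by side on chromosome 9, in the same orientation, within gaps of 27917 and 28810 bases. Col6a6 (ENSMUSG00000043719, chr9:105687809-105828160, minus strand) had 17.6, 25.4, 24.3 and 18.5 CPM in the 2 month samples, 61.4, 31.5 and 53.4 CPM in the 18 month samples and 80.0, 57.4 and 32.0 CPM in the 24 month samples. No older sample fell into the 2 month range, and the log2 fold change was 1.40 (SE 0.31, adjusted p = 0.0104) at 24 months and 1.18 (SE 0.31, adjusted p = 0.0412) at 18 months. Col6a4 (ENSMUSG00000032572, chr9:105989454-106096783, minus strand) had 77.3, 131, 98.9 and 119 CPM in the 2 month samples, 112, 224 and 209.6 CPM in the 18 month samples and 176, 166 and 182 CPM in the 24 month samples. Its 24 month samples were close to each other and above all 2 month samples, with a log2 fold change of 0.71 (SE 0.24, adjusted p = 0.0456). Their neighbour Col6a5 (ENSMUSG00000091345, chr9:105856078-105960643, minus strand) had 331, 36.0, 463 and 228 CPM in the 2 month samples, 555, 104 and 236 CPM in the 18 month samples and 268, 478 and 181 CPM in the 24 month samples. Samples of every age spanned several-fold and overlapped, and the log2 fold change of 0.23 (SE 0.76, adjusted p = 0.834) did not pass the test. Between 18 and 2 months the other type VI genes had log2 fold changes of 0.17 to 0.77 and did not pass.

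Summed over the 6 genes, type VI messages took 0.127% to 0.141% of all counts in the 2 month samples, 0.184% to 0.209% at 18 months and 0.187% to 0.343% at 24 months. All 6 older samples lay above all 4 young ones. The share was highest in 24 month replicate 2, and without it 2 of the 6 genes were called higher, as also without 2 month replicate 1 or 3. Without 2 month replicate 4 or the summed 18 month sample 3 were called. Col6a1 and Col6a4 were the least stable, each called in 3 of the 10 fits that left out 1 sample, with log2 fold changes of 0.33 to 0.90 and 0.57 to 0.85. Col6a1 lost the call without 2 month replicate 1, 3 or 4, any 18 month sample or 24 month replicate 2, and Col6a4 without 2 month replicate 1, 3 or 4, the summed 18 month sample or any 24 month replicate. Col6a2 was called in 6 of these fits (0.41 to 1.04), losing the call without 2 month replicate 1, 2 or 3 or 24 month replicate 2. Col6a3 and Col6a6 were called in all 10. Leaving out the replicates numbered 2 of both older ages, the samples with high smooth muscle markers, left 2 of the 6 genes called. The ratio of Col6a1 to Col6a2 per length was 1.67 ± 0.17 on the log2 scale at 2 months (mean ± SD, n = 4), 1.56 ± 0.04 at 18 months and 1.59 ± 0.08 at 24 months (n = 3 each), so both chains moved together within their spread.

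**Figure D3:**
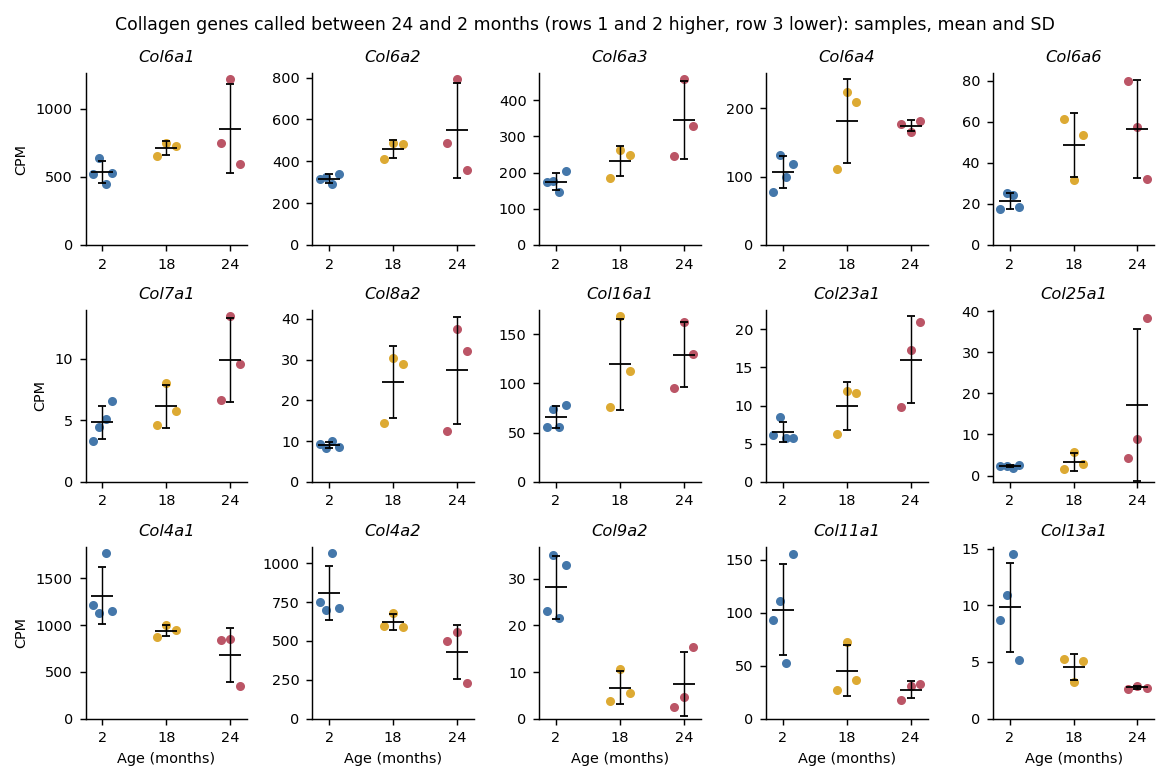
CPM per sample of the 15 collagen genes called between 24 and 2 months, each panel with its own linear axis, 1 point per sample and bars for mean ± SD. The upper rows hold the 10 genes that rose and the lowest row the 5 that fell, and in Col25a1 a single 24 month sample at 38.3 CPM widens the SD below 0.

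Most of 10 markers of ovarian fibroblasts and stroma moved in the same direction as type VI collagen at 24 months. Mfap5 (log2 fold change -0.70) and Pdgfrb (-0.12) went the other way and were not called. The summed level of the 10 was 1007 to 1198 CPM at 2 months, between 2078 and 2312 at 18 months, and between 1978 and 3369 at 24 months. Within that sum Dcn, itself a matrix gene, had a mean of 234.5 CPM at 2 months and 1318 at 24 months. Of the 10 markers, 7 were called higher at 24 months and 3 at 18 months, beside 19.2% and 6.04% of all genes. Macrophage markers summed to 340.0 to 471 CPM, 718 to 1051 and 952 to 1122. Smooth muscle and pericyte markers summed to 811 to 1068, 845 to 1840 and 692 to 1793, with 2 of 10 called higher at 24 months. Surface epithelium markers summed to 138 to 178, 282 to 703 and 250 to 764, with 7 of 10 called higher at each older age. The part of these cell types in the collagen changes was not tested.

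Among collagens of other networks, Col8a2 rose at both older ages. It encodes the alpha2 chain of type VIII, a short-chain collagen of hexagonal lattices such as Descemet's membrane, and lies at ENSMUSG00000056174, chr4:126286793-126314330, plus strand. Its level was 9.17, 8.36, 9.99 and 8.52 CPM in the 2 month samples, 14.3, 30.4 and 28.9 CPM in the 18 month samples and 12.6, 37.6 and 32.1 CPM in the 24 month samples. No older sample fell into the 2 month range, and the log2 fold change was 1.61 (SE 0.36, adjusted p = 0.0101) at 24 months and 1.45 (SE 0.36, adjusted p = 0.0338) at 18 months. Col8a1, the alpha1 partner, was at 5.48, 5.66, 3.45 and 13.8 CPM in the 2 month samples, 5.07, 39.4 and 14.0 CPM in the 18 month samples and 5.79, 24.7 and 9.33 CPM in the 24 month samples. All ages overlapped in this gene, and its log2 fold change of 0.90 (SE 0.73, adjusted p = 0.353) at 24 months did not pass. Col7a1 (ENSMUSG00000025650, chr9:108953586-108984875, plus strand), the anchoring fibril collagen best known from skin, was at 3.31, 4.44, 5.08 and 6.54 CPM in the 2 month samples, 4.61, 8.04 and 5.77 CPM in the 18 month samples and 6.64, 13.5 and 9.60 CPM in the 24 month samples, a log2 fold change of 1.03 (SE 0.31, adjusted p = 0.0299) at 24 months. The highest 2 month and the lowest 24 month value of Col7a1 nearly met, at 6.54 and 6.64 CPM, and it did not pass when 2 month replicate 1, 2 or 3 or 24 month replicate 2 or 3 was left out (log2 fold changes of 0.75 to 1.27 over the fits leaving out 1 sample).

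Transmembrane collagens, which span the cell surface, moved in both directions at 24 months. Of 4 genes 2 rose and 1 fell, beside 19.2% and 15.8% of all genes. Col23a1 (ENSMUSG00000063564, chr11:51289920-51583918, plus strand) was at 6.14, 8.48, 5.73 and 5.72 CPM in the 2 month samples, 6.31, 11.9 and 11.6 CPM in the 18 month samples and 9.81, 17.3 and 20.96 CPM in the 24 month samples. Every 24 month sample exceeded every 2 month sample, and its log2 fold change was 1.30 (SE 0.30, adjusted p = 0.0116). Col25a1 (ENSMUSG00000058897, chr3:130131501-130599877, plus strand), found in amyloid plaques of the brain and needed for innervation of muscle, was at 2.45, 2.24, 1.87 and 2.47 CPM in the 2 month samples, 1.56, 5.83 and 2.78 CPM in the 18 month samples and 4.33, 8.91 and 38.3 CPM in the 24 month samples. Although all 24 month values exceeded the 2 month values, replicate 3, the sample with high oviduct markers, held the highest; the log2 fold change was 2.93 (SE 0.69, adjusted p = 0.0123) and without that sample 1.57. Col13a1 (ENSMUSG00000058806, chr10:61838236-61979108, minus strand), a collagen of cell adhesion sites and the neuromuscular junction, was at 8.69, 10.9, 14.6 and 5.17 CPM in the 2 month samples, 5.28, 3.25 and 5.10 CPM in the 18 month samples and 2.65, 2.90 and 2.70 CPM in the 24 month samples. Its 24 month samples lay within a narrow range below all others, with a log2 fold change of -1.83 (SE 0.35, adjusted p = 0.00551). Col17a1, the hemidesmosome collagen, had a log2 fold change of 0.81 (SE 0.32, adjusted p = 0.077) and did not pass.

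Of the 6 type IV genes, the most abundant pair fell. Col4a1 (ENSMUSG00000031502, chr8:11198423-11312826, minus strand) and Col4a2 (ENSMUSG00000031503, chr8:11312805-11449287, plus strand) encode the chains of the general basement membrane network and start head to head on opposite strands, their annotated transcripts overlapping by 22 bases. Col4a1 was at 1211, 1128, 1767 and 1154 CPM in the 2 month samples, 878, 1001 and 946 CPM in the 18 month samples and 838, 852 and 344 CPM in the 24 month samples. Col4a2 was at 753, 697, 1064 and 712 CPM in the 2 month samples, 596, 678 and 586 CPM in the 18 month samples and 496, 555 and 232 CPM in the 24 month samples. In both genes every 18 month sample lay below every 2 month sample and every 24 month sample below every 18 month sample. They were the only members without overlap in all 3 comparisons. The share of all genes without overlap in all 3 was not counted, so nothing particular to this pair is read from it. At 24 against 2 months the log2 fold change was -0.96 (SE 0.30, adjusted p = 0.0362) for Col4a1 and -0.91 (SE 0.28, adjusted p = 0.0323) for Col4a2, while the 18 month values of -0.48 (SE 0.30, adjusted p = 0.313) and -0.38 (SE 0.28, adjusted p = 0.397) did not pass. The per-length ratio of Col4a1 to Col4a2 stayed at 0.53 ± 0.02, 0.43 ± 0.08 and 0.48 ± 0.10 on the log2 scale at 2, 18 and 24 months (mean ± SD, n = 4, 3 and 3).

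24 month replicate 3 was the lowest sample of the series in both genes. Without it the log2 fold changes were -0.62 and -0.60, and neither gene passed. Neither passed without 2 month replicate 1 or 3 either, and Col4a1 did not pass without 2 month replicate 2 or 4, although all log2 fold changes stayed below 0. Scaled by library totals alone, Col4a2 passed and Col4a1 did not. Blood vessel endothelium markers, whose cells also make these chains, summed to 583 to 1198 CPM at 2 months, between 767 and 893 at 18 months, and between 617 and 876 at 24 months. At 18 and at 24 months 1 of 10 was called, higher in both, beside 6.04% and 19.2% of all genes. The highest endothelial sum of the 2 month group (1198) was in replicate 3, which also had the highest Col4a1 and Col4a2. Theca and luteal cell markers summed to 26778 to 58271, 20682 to 32724 and 6202 to 23816 CPM, highest in the same 2 month sample and lowest in the same 24 month sample. The part of either cell type in the type IV values was not tested.

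The other 4 type IV chains were not called. Col4a3, a chain of the specialised network of kidney and other filters, was at 21.7, 16.8, 27.2 and 16.7 CPM in the 2 month samples, 14.2, 39.3 and 17.5 CPM in the 18 month samples and 12.7, 27.5 and 19.4 CPM in the 24 month samples. Relative to Col4a1 per length it stood at -6.42 ± 0.14 on the log2 scale at 2 months, -5.88 ± 0.69 at 18 months and -5.47 ± 0.95 at 24 months. Col4a4, Col4a5 and Col4a6 had log2 fold changes at 24 against 2 months of -0.28 (SE 0.31), -0.10 (SE 0.28) and 0.66 (SE 0.34). The gene pairs Col4a3 with Col4a4 and Col4a5 with Col4a6 are also head to head, with gaps of 71 and 1308 bases. Of the basement membrane collagens with endostatin-like ends, Col18a1 was at 158, 150.1, 198 and 139 CPM in the 2 month samples, 126, 239 and 124 CPM in the 18 month samples and 94.3, 174 and 157 CPM in the 24 month samples, overlapping throughout. Col15a1 had a log2 fold change of 0.53 (SE 0.36, adjusted p = 0.274) and did not pass either.

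The fibrillar messages that make up most collagen protein of connective tissue were spread widely within the older ages and none rose beyond that spread. Col1a1 (ENSMUSG00000001506, chr11:94936224-94953042, plus strand), the alpha1 chain of type I, was at 261, 353, 350.2 and 415 CPM in the 2 month samples, 287, 838 and 502 CPM in the 18 month samples and 376, 799 and 220.3 CPM in the 24 month samples. The 18 and 24 month replicates numbered 2 were the highest of all samples, and the other older samples ran from 220.3 to 502 CPM. Its log2 fold change was 0.43 (SE 0.44, adjusted p = 0.469) at 24 months and 0.65 (SE 0.44, adjusted p = 0.353) at 18 months. Col1a2 (ENSMUSG00000029661, chr6:4504814-4541544, plus strand), its alpha2 partner, was at 529, 702, 610.2 and 812 CPM in the 2 month samples, 496, 1482 and 978 CPM in the 18 month samples and 672, 1484 and 745 CPM in the 24 month samples, with 0.54 (SE 0.38, adjusted p = 0.28) at 24 months. Col3a1 (ENSMUSG00000026043, chr1:45311538-45349706, plus strand), type III, was at 1062, 977, 833 and 1244 CPM in the 2 month samples, 775, 1152 and 959 CPM in the 18 month samples and 869, 1585 and 434 CPM in the 24 month samples. Its log2 fold change was -0.10 (SE 0.36, adjusted p = 0.853), with 24 month samples both above and below the whole 2 month range. Per length, Col3a1 over Col1a1 was 1.00 ± 0.33 on the log2 scale at 2 months, 0.36 ± 0.49 at 18 months and 0.48 ± 0.13 at 24 months.

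Col11a1 was the fibrillar gene that fell. It encodes a chain of type XI, a collagen of thin fibrils that nucleates fibril assembly in cartilage, lies at ENSMUSG00000027966, chr3:114030540-114220718, plus strand, and was at 92.6, 111, 52.0 and 155 CPM in the 2 month samples, 26.8, 72.4 and 36.5 CPM in the 18 month samples and 17.9, 30.7 and 32.7 CPM in the 24 month samples. No 24 month sample reached the 2 month range, and the log2 fold change was -1.92 (SE 0.44, adjusted p = 0.0111). Its partner Col11a2 was at 5.41, 5.72, 6.01 and 7.15 CPM in the 2 month samples, 7.44, 4.95 and 7.69 CPM in the 18 month samples and 7.95, 6.49 and 4.01 CPM in the 24 month samples and had a log2 fold change of 0.02 (SE 0.26, adjusted p = 0.966). The per-length ratio of Col11a1 to Col11a2 was accordingly 3.09 ± 0.60 on the log2 scale at 2 months, 1.77 ± 1.07 at 18 months and 1.26 ± 0.93 at 24 months. The remaining tested fibrillar genes, Col5a1, Col5a2, Col5a3, Col24a1 and Col27a1, had log2 fold changes of -0.38 to 0.97 at 24 months, and none passed.

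FACIT collagens moved in both directions, with 28.6% of those tested called at 24 months beside 35.0% of all genes. Col16a1 (ENSMUSG00000040690, chr4:130047840-130099283, plus strand) was at 55.6, 73.7, 56.0 and 77.6 CPM in the 2 month samples, 76.4, 169 and 112 CPM in the 18 month samples and 95.7, 163 and 129 CPM in the 24 month samples. All 24 month samples lay above the 2 month range, with a log2 fold change of 0.97 (SE 0.27, adjusted p = 0.0216); it did not pass when 2 month replicate 1 or 3 or 24 month replicate 2 or 3 was left out (0.78 to 1.16 over the fits leaving out 1 sample). Col12a1 (ENSMUSG00000032332, chr9:79598991-79718831, minus strand), which sits on type I fibrils under mechanical load, was at 78.3, 107, 67.7 and 103 CPM in the 2 month samples, 80.7, 383 and 209 CPM in the 18 month samples and 123, 292 and 188 CPM in the 24 month samples. Its log2 fold change of 1.18 (SE 0.46, adjusted p = 0.0704) did not pass, and the older samples spread from 80.7 to 383 CPM. Col9a2 (ENSMUSG00000028626, chr4:121039385-121055322, plus strand), a chain of the cartilage collagen type IX, was at 23.2, 35.2, 21.5 and 32.9 CPM in the 2 month samples, 3.83, 10.7 and 5.43 CPM in the 18 month samples and 2.46, 4.67 and 15.3 CPM in the 24 month samples. No older sample reached the 2 month range, and its log2 fold change was -1.91 (SE 0.59, adjusted p = 0.0334) at 24 months and -2.08 (SE 0.60, adjusted p = 0.0532) at 18 months, which did not pass. It did not pass at 24 months when 2 month replicate 1, 2 or 4 or 24 month replicate 1 or 2 was left out. Over all fits leaving out 1 sample, its log2 fold changes were -2.96 to -1.49.

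Of the other type IX chains, Col9a3, at a low level, did not follow Col9a2, and Col9a1 had too few counts to show a fall. Col9a1 was listed at 0 in all 2 month samples and reached no more than 0.0631 CPM in any sample. Col9a3 was at 1.34, 2.14, 1.10 and 1.46 CPM in the 2 month samples, 1.17, 1.17 and 1.32 CPM in the 18 month samples and 1.04, 1.96 and 1.63 CPM in the 24 month samples, and its log2 fold change was 0.03 (SE 0.30, adjusted p = 0.941). Per length, Col9a2 over Col9a3 was 4.55 ± 0.21 on the log2 scale at 2 months, 2.63 ± 0.78 at 18 months and 2.22 ± 1.15 at 24 months, and the lowest 2 month ratio (4.35) exceeded the highest older one (3.55). Col14a1, Col20a1 and Col22a1 had log2 fold changes between -0.16 and 0.13 at 24 months and did not pass. Col10a1, the collagen of hypertrophic cartilage, had -1.72 (SE 0.66, adjusted p = 0.0668) at levels of at most 1.43 CPM, and Col26a1 and Col28a1 did not pass.

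**Figure D4:**
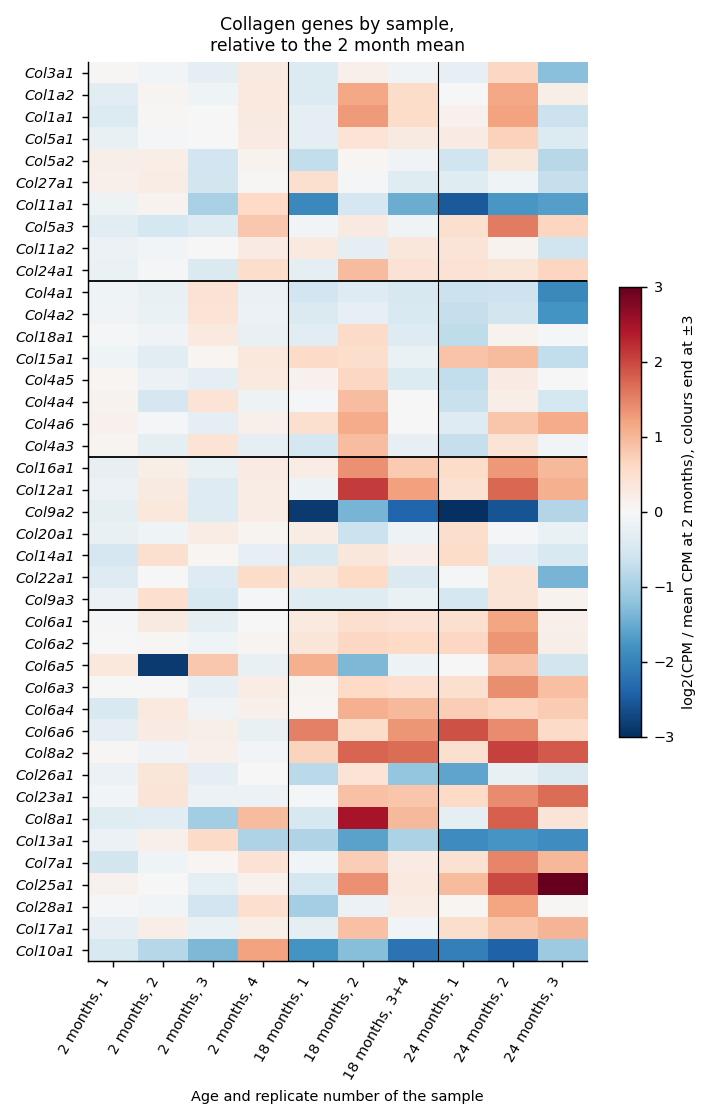
Log2 ratio of each sample's CPM to the gene's mean at 2 months for the 41 tested collagen genes (rows, by class) in 10 samples (columns, by age), with colours ending at ±3. Replicate 2 of the 18 and 24 month ages has the highest value of its age for 32 and 28 of the 41 genes.

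Between 18 and 2 months, 2 of 41 collagen genes were called (4.88%, beside 11.6% of all genes): Col6a6 and Col8a2, both higher (6.04% of all genes were), and 0 lower (5.51%). At an unadjusted p under 0.05 there were 10 collagens, beside 6084 of all 20331 genes tested. DESeq2 called 5 collagens higher and 3 lower, beside 4052 of all genes called in either direction. The median log2 fold change was 0.21 over the collagens and 0.01 over all genes. Ages did not overlap in 4 collagens that were higher (Col6a1, Col6a2, Col6a6 and Col8a2) and 3 that were lower (Col4a1, Col4a2 and Col9a2), beside 13.7% of all genes in each direction. Both calls were lost when any single 2 month replicate or the summed 18 month sample was left out, that of Col6a6 also without 18 month replicate 1 or 24 month replicate 2, and that of Col8a2 also without 18 month replicate 2. Without 18 month replicate 1, 4 collagens were called higher, and without 2 month replicate 3 or 4 or 24 month replicate 1 or 3, 1 was called lower. Both comparisons with 2 months use the same 4 young samples, so their values for a gene are not independent.

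Between 24 and 18 months, edgeR called 0 of 41 collagen genes at the adjusted threshold, beside 0.00492% of all genes (1 gene, and 0 with the replicate number as a block). The smallest adjusted p was 0.443, for Col25a1, which had a log2 fold change of 2.33 (SE 0.75). At an unadjusted p under 0.05 there were 3 collagens, beside 2108 of all 20331 genes tested. DESeq2 also called 0 collagens, beside 194 of all genes. Groups did not overlap in 1 collagen that was higher (Col5a3) and 3 that were lower (Col4a1, Col4a2 and Col13a1), beside 6.73% and 5.36% of all genes. The median log2 fold change was 0.00 over the collagens and 0.03 over all genes.

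Collagen levels also differed between samples of 1 age. Of the 41 tested genes, 32 had their highest 18 month value in replicate 2 (31.9% of all genes did) and 28 their highest 24 month value in replicate 2 (25.3% of all genes did). Fibrillar messages took 0.393% and 0.474% of counts in these samples, against 0.182% to 0.305% in the other older samples and 0.185% to 0.299% in the young ones. These were also the samples with the highest smooth muscle markers of their ages. With both left out, 6 collagens rose and 3 fell between 24 and 2 months, and 0 were called between 18 and 2 months.

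**Figure D5:**
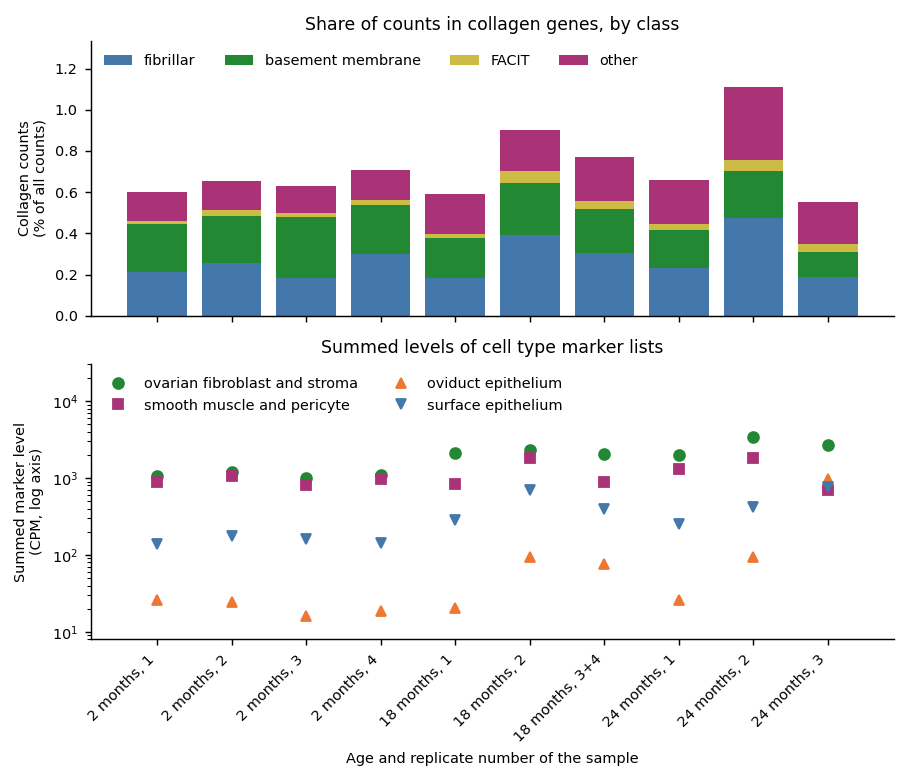
Upper panel: share of all counts in collagen genes per sample, stacked by class from 0. Lower panel: summed CPM of 4 cell type marker lists per sample (log axis), where replicate 3 of the 24 month ovaries holds 958 CPM of oviduct epithelium markers and replicate 2 of the 18 and 24 month ovaries the highest smooth muscle sums.

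Collagen needs a chain of helper enzymes before it can be secreted: prolyl and lysyl hydroxylases modify it, and chaperones hold and fold it. Of 20 folding and hydroxylation genes, 9 fell and 1 rose between 2 and 24 months (15.8% of all genes fell and 19.2% rose; median log2 fold change of the list -0.42), the reverse of the sign of the collagens' own median. Plod1, a lysyl hydroxylase, fell from 114 ± 3.97 CPM (mean ± SD, n = 4) to 87.0 ± 2.21 at 18 months and 75.5 ± 8.07 at 24 months (n = 3 each), with a log2 fold change of -0.60 (SE 0.09, adjusted p = 0.00273); it was the only gene of the list called at 18 months (-0.39 (SE 0.09, adjusted p = 0.0249)). P3h4, part of a complex for lysyl hydroxylation, fell from 156 ± 31.2 to 80.7 ± 16.9 CPM (-0.95 (SE 0.20, adjusted p = 0.00773)). P3h3, a partner of P3h4 in that complex, was the gene that rose (0.71 (SE 0.16, adjusted p = 0.0106)). Chosen after its values were seen, Serpinh1, the collagen chaperone HSP47, went from 738 ± 119.6 to 371 ± 83.9 CPM (-0.99 (SE 0.21, adjusted p = 0.00796)). P4ha2, the second of the list at 18 months, did not pass (-0.84 (SE 0.24, adjusted p = 0.0503)). Scaled by library totals alone, 6 of the list fell at 24 months; 6 fell without 2 month replicate 1 and 5 without 24 month replicate 3. At 18 months 0 fell when 2 month replicate 1, 2 or 4, 18 month replicate 2 or the summed 18 month sample was left out, while 2 fell without 2 month replicate 3 or 24 month replicate 3 and 3 without 24 month replicate 1.

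After secretion, propeptides are cut off and fibrils are cross-linked. Of 14 such genes, 4 rose and 0 fell at 24 months, and 1 rose at 18 months, beside 19.2% and 6.04% of all genes that rose at these ages, so neither count is read as particular to the list. Tgm2, a cross-linking transglutaminase, had log2 fold changes of 0.65 (SE 0.16, adjusted p = 0.0337) and 0.68 (SE 0.16, adjusted p = 0.0129) at 18 and 24 months. The others that rose at 24 months were all at low levels: Tll1, a propeptide protease, reached 3.43 ± 1.21 CPM (1.61 (SE 0.43, adjusted p = 0.019)), the lysyl oxidase Loxl4 1.48 ± 0.387 (1.04 (SE 0.29, adjusted p = 0.0235)) and the enhancer Pcolce2 0.768 ± 0.451 (1.82 (SE 0.62, adjusted p = 0.0458)). Loxl1 did not pass at 18 months (0.73 (SE 0.24, adjusted p = 0.0788)). Among these genes 6 had an unadjusted p under 0.05 at 24 months and 4 at 18 months, beside 9504 and 6084 of all 20331 genes tested. DESeq2 called 5 and 2 of the list higher and 0 lower. At 24 months 2 rose without 2 month replicate 1 or 4, 1 fell without 24 month replicate 1, and 1 rose and 1 fell without 24 month replicate 2. At 18 months 0 rose when any single 2 month replicate or 18 month replicate 1 or 2 was left out, and 2 rose without 24 month replicate 2 or 3, with 1 that fell in the former.

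Of 12 tested proteins that bind collagen fibrils, 4 rose and 1 fell at 24 months, and 2 rose at 18 months, beside 19.2%, 15.8% and 6.04% of all genes. At 18 months 1 rose without 2 month replicate 1, 2 or 4 or the summed 18 month sample, and DESeq2 called 4 higher at that age. Decorin (Dcn), a proteoglycan that wraps fibrils and also stands in the stroma marker list, went from 234 ± 46.8 to 740.5 ± 97.4 and 1318 ± 352 CPM, with log2 fold changes of 1.66 (SE 0.22, adjusted p = 0.00895) and 2.49 (SE 0.22, adjusted p = 0.0012). Dermatopontin (Dpt) rose by 3.05 (SE 0.50, adjusted p = 0.00367) at 24 months, and lumican (Lum) by 1.07 (SE 0.24, adjusted p = 0.0242) at 18 months. Chosen after their values were seen, osteoglycin (Ogn) also rose (0.99 (SE 0.34, adjusted p = 0.0472)) and the matricellular collagen chaperone Sparc fell, from 3389 ± 621 to 1373 ± 536 CPM (-1.30 (SE 0.29, adjusted p = 0.0102)).

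Of 11 tested collagen receptors, 3 rose and 1 fell at each older age. Of all genes 6.04% rose and 5.51% fell at 18 months and 19.2% rose and 15.8% fell at 24 months, and the 24 month counts are near that background. Ddr2, a tyrosine kinase receptor for fibrillar collagen, rose by 0.86 (SE 0.11, adjusted p = 0.00895) and 0.88 (SE 0.11, adjusted p = 0.00207), the leukocyte receptor Lair1 by 1.52 (SE 0.33, adjusted p = 0.0227) and 1.90 (SE 0.33, adjusted p = 0.00422), and the endocytic receptor Mrc2 by 0.87 (SE 0.21, adjusted p = 0.0309) and 0.87 (SE 0.21, adjusted p = 0.0132) at 18 and 24 months. Itga2, an integrin subunit that binds collagen, fell from 66.8 ± 16.9 to 23.5 ± 6.99 and 12.9 ± 6.13 CPM (-2.37 (SE 0.36, adjusted p = 0.00277) at 24 months, -1.51 (SE 0.34, adjusted p = 0.0259) at 18 months). Among 14 genes of collagen breakdown, 4 rose at 18 months and 5 at 24 months (6.04% and 19.2% of all genes), and 0 fell. The gelatinase Mmp9 rose at 18 months (2.45 (SE 0.49, adjusted p = 0.0185)), as did the inhibitors Timp3 (0.69 (SE 0.13, adjusted p = 0.0168)) and Timp2 (0.81 (SE 0.20, adjusted p = 0.0332)) and the membrane protease Mmp15 (0.68 (SE 0.18, adjusted p = 0.0406)). At 24 months Mmp15 (0.94 (SE 0.18, adjusted p = 0.00604)) and Timp3 (0.58 (SE 0.13, adjusted p = 0.0107)) had the smallest adjusted p. Named after their values were seen, Fap, Timp2 and Mmp16 were the others that rose, with log2 fold changes of 1.28, 0.78 and 1.06. DESeq2 called 5 higher and 1 lower at 24 months. Without 24 month replicate 2, 2 of the breakdown genes rose at that age, and without replicate 3, 3 rose. At 18 months 0 breakdown genes rose without 2 month replicate 1 or 18 month replicate 2, 1 without 2 month replicate 2, and 2 without 2 month replicate 4, 18 month replicate 1 or the summed 18 month sample. The receptors called higher at 18 months numbered 1 without 2 month replicate 1, 2 or 4 or the summed sample, and the call of Itga2 at that age was lost in these fits and without 18 month replicate 2.

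Among 13 regulators of collagen transcription found by symbol, Tgfbr2, a TGF-beta receptor, rose at both ages (0.71 (SE 0.12, adjusted p = 0.0127) and 0.78 (SE 0.12, adjusted p = 0.0027)). Sox9, a driver of cartilage collagen genes such as Col2a1, Col9a2 and Col11a1, rose from 2.67 ± 0.348 to 16.2 ± 11.7 and 20.5 ± 18.1 CPM (2.94 (SE 0.64, adjusted p = 0.00924) at 24 months, 2.60 (SE 0.64, adjusted p = 0.032) at 18 months), whereas Col9a2 and Col11a1 fell. Tgfb1, the ligand, fell at 24 months (-0.98 (SE 0.27, adjusted p = 0.0227)). Between 24 and 18 months edgeR called 0 genes of the pathway lists, with 1 to 4 genes per list at an unadjusted p under 0.05, and DESeq2 called 1, a fibril-binding gene that was lower. Of the 13 regulators, 2 rose at 18 months, beside 6.04% of all genes. At 24 months 2 rose and 1 fell, beside 19.2% and 15.8% of all genes. The 24 month counts are no more than the background. At 18 months 1 rose without any single 2 month replicate, 18 month replicate 2 or the summed 18 month sample; at 24 months the call of Tgfb1 did not hold when 24 month replicate 3 was left out.

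Promoter windows were read from RefSeq (GRCm38.p6) for 35 of the 44 members, 250 bases before to 50 after each start. The GC box (GGGCGG, either strand) was found in 23 of 38 collagen windows (60.5%), beside 35.7% of all 32851 windows. CCAAT (either strand) was in 34.2% beside 37.4%, and TATAAA (either strand) in 13.2% beside 13.6%. To show how far their letters differ, the 150 bases before the RefSeq start are printed for Col6a3, Col8a2, Col23a1 and Col11a1. Between 2 and 24 months Col6a3, Col8a2 and Col23a1 rose in every alternative tried, and Col11a1 fell in every one. Matches to these motifs are in capitals, but where matches overlap, as at the end of the Col8a2 bases, only the first is.
Col6a3, chr1:90843972-90844121, minus strand: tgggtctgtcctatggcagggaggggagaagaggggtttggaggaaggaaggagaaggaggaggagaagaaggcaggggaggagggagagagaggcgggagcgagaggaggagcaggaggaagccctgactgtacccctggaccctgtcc
Col8a2, chr4:126286644-126286793, plus strand: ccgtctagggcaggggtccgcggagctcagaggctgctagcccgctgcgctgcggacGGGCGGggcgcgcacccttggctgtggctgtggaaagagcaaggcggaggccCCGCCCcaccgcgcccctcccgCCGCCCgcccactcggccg
Col23a1, chr11:51289770-51289919, plus strand: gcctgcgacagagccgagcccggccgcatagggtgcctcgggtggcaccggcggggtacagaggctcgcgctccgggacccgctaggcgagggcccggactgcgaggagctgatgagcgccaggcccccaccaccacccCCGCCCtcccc
Col11a1, chr3:114030390-114030539, plus strand: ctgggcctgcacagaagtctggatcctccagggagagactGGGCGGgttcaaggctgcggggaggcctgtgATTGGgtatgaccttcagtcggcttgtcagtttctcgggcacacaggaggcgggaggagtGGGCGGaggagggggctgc
None of these motifs stands in the printed bases of Col6a3, while Col8a2 and Col23a1 hold GC boxes and Col11a1 holds GC boxes and a CCAAT box on the opposite strand. A match or its absence in such a window describes letters only.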

How the data were processed

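RNA of the ovaries was extracted with Trizol and a clean-up column, and a stranded Illumina mRNA kit was used for the libraries, per the labels' protocols. The authors deposited unnormalized counts of each gene in each library. The submitters' processing notes list FastQC, cutadapt, STAR and HTSeq and the build mm10. The versions, the annotation and the strand setting were not given in the sources used here, so reads of overlapping genes are uncertain. At most 6.07% of a collagen's exon bases were shared with another gene. All 44 members had identical coordinates in GENCODE M21 (GRCm38), which gave exon lengths.

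Counts were tested with edgeR 4.0.16 in R 4.3.3 (TMM scaling, filterByExpr, robust glmQLFit, glmQLFTest, two-sided, Benjamini-Hochberg adjustment over 20331 genes, threshold 0.05), with all 3 ages in 1 model, which left 7 residual degrees of freedom. The scripts were tested on simulated data. SE is the log2 fold change divided by the root of F. CPM use TMM library sizes. Shares of counts use raw totals, and levels between genes are per kb of merged exons. Library totals of 14124639 (18 month replicates 3 and 4 summed) to 33407509 leave genes of few counts the least precise. Same-numbered 18 and 24 month samples deviated together (r = 0.398, 0.283 and 0.148), and same-numbered samples of the other ages did not. However, some samples that differ in number did as well. The r was 0.247 for 2 month replicate 2 with the summed 18 month sample. It was 0.163 for 2 month replicate 3 with 18 month replicate 1, and 0.144 for 18 month replicate 2 with 24 month replicate 3. All remaining pairs that differ in number had lower r, down to -0.339. The labels name no pairing, so whether the numbers pair samples is not known. The main fit used age alone, with the replicate number as a block only in an alternative.

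The members, gene lists and tests were chosen with earlier results of these data known. Values per sample are given for collagens with an adjusted p under 0.05, the 3 with the highest level of each class, and partner chains. Of each pathway list, the 2 with the smallest adjusted p per comparison with 2 months are named, or all that passed where 4 or fewer did. Alternatives were other scalings, count filters, a replicate block, 2 ages only, DESeq2 1.42.0, limma 3.58.1 (voom), all 11 libraries apart and each sample left out. Lists for adipocytes (5 of 8 tested, 2 higher at 24 months), lymphocytes and cartilage and bone were also counted.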

Additional observations from a re-analysis of the deposited data

Results flagged for a closer look

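In 5 of 41 collagen genes, 1 of the 4 young samples lay far from the other 3 by Dixon's criterion for groups of 4. For independent, normally spread values chance gives about 1 such gene in 20. The share among all genes was not counted, so nothing particular to collagens is read from the 5. Over all genes, 2 month replicate 3 was the highest sample of its age for 32.3% and the lowest for 32.4%. Col4a1 (1767 CPM against 1128 to 1211) and Col4a2 (1064 against 697 to 753) were both high in 2 month replicate 3, the sample in which Col5a2 was low (86.7 against 139 to 148). Col5a3 was high in replicate 4 (8.68 against 3.42 to 3.93), and Col23a1 in replicate 2 (8.48 against 5.72 to 6.14). Of these, Col4a1, Col4a2 and Col23a1 were called between 24 and 2 months. Without 2 month replicate 3, Col4a1 and Col4a2 were no longer called, whereas Col23a1 was called in all 20 alternatives.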

How the results depend on the processing

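No named collagen changed direction in a called comparison. Between 24 and 2 months, Col6a3, Col8a2, Col11a1, Col13a1 and Col23a1 were called in all 20 alternatives. Col25a1 and Col6a6 were lost only with the replicate block, and Col6a1 was called in 10. Counts of collagens that rose between 24 and 2 months (10) came to 6 without 18 and 24 month replicates 2 (chosen after seeing the data) and to 5 to 12 with each sample left out; those that fell (5) came to 3 with library totals alone, 2 with the replicate block, 3 with only those ages, 3 without both replicates and 2 to 5 with each sample left out. Calls among all genes (7120) came to 4187 without both and 4283 to 7467 with each left out. Between 18 and 2 months, collagens that rose (2) came to 1 with no count filter, 1 with the block (neither Col6a6 nor Col8a2), 5 with 11 libraries apart, 5 with DESeq2, 0 without both and 0 to 4 with each left out; those that fell (0) came to 1 with the block, 3 with 11 libraries, 1 with only those ages, 3 with DESeq2, 2 with limma-voom and 0 to 1 with each left out. All genes (2349) came to 1034 with the block, 4000 with 11 libraries, 4052 with DESeq2, 493 without both and 375 to 2748 with each left out. Between 24 and 18 months, calls among all genes (1) came to 0 with library totals, the block, only those ages and without both, 194 with DESeq2 and 0 to 2 with each left out. The cause of these shifts was not tested. Fits with a sample left out hold fewer samples, and their counts moved both up and down. With library totals, the median of all genes moved from 0.03 to 0.22 (log2) between 24 and 2 months, and 73.0% of calls were higher in place of 54.9% (66.7% in place of 52.3% between 18 and 2 months). Taking the sample numbers as a block changed no collagen call between 24 and 18 months. Nothing in the labels says that the numbers pair samples of any ages. Genes of few counts, such as Col2a1 and Col9a1, could not be tested at this depth.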

Other observations

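Of 7 tested markers of cartilage and bone, 3 rose between 2 and 24 months by edgeR with Benjamini-Hochberg adjustment, beside 19.2% of all genes. Acan, the large proteoglycan of cartilage, was at 1.16 ± 0.392 CPM at 2 months (mean ± SD, n = 4), 6.03 ± 5.93 at 18 months and 23.4 ± 18.2 at 24 months (n = 3 each), with a log2 fold change of 4.32 (SE 0.76, adjusted p = 0.00452). Comp, a cartilage matrix protein, was at 2.21 ± 1.22, 8.62 ± 4.83 and 21.3 ± 24.9 CPM (3.28 (SE 0.94, adjusted p = 0.0248)), and Sp7, a bone transcription factor, at 0.382 ± 0.0735, 0.837 ± 0.138 and 1.82 ± 2.13 CPM (2.25 (SE 0.69, adjusted p = 0.0325)). In Comp and Sp7 the SD at 24 months exceeded the mean, so these rises were uneven over the 24 month samples. Hapln1, Alpl, Ibsp and Dmp1 did not pass, with log2 fold changes of 0.30, 0.64, 0.72 and -0.92. The summed level of the list was 19.5 to 27.9 CPM at 2 months, between 32.4 and 45.7 at 18 months, and between 65.9 and 83.7 at 24 months, without overlap. Over the same ages Col9a2 and Col11a1 fell, Col10a1 had a log2 fold change of -1.72 (SE 0.66, adjusted p = 0.0668), and Col2a1 stayed at or under 0.155 CPM in every sample. These genes were chosen after their values were seen.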
